A study of Mus musculus with 49 samples.

Results

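The step from 1 day to 2 days of monolayer culture was examined in primary mouse hepatocytes by comparing all 3 libraries made at 2 days with all 3 made at 1 day, which are 6 of the 49 libraries of the series. Both groups were wild-type hepatocytes of the C57BL/6J strain. Donor mice were male, by the paper's methods, and 10 weeks old. The livers were dissociated with collagenase, and several rounds of spinning served to leave behind blood and other liver cells. Both groups grew as a monolayer in the same progenitor medium with EGF at 20 ng/mL. By their labels the groups differed only in time in culture, and neither carried a transgene or another drug. The study describes its experiments as repeated independently, but the labels do not tie these libraries to mice, so p-values measure only the spread between these samples, part of which may be technical.

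An adult hepatocyte rests outside the cell cycle and carries most of the liver's metabolic work, including drug oxidation by cytochromes P450, the urea cycle, bile acid synthesis and secretion of plasma proteins. Growth factor signals such as EGF raise D-type cyclins in G1, which leads to release of the E2F transcription factors from the retinoblastoma proteins. E2F then drives genes for DNA replication, and a later wave of genes for mitosis is held back through a promoter element called CHR until the B-Myb and FoxM1 factors act. Isolated hepatocytes in dish culture are known to lose their specialised gene products over days.

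The unit throughout was the count of unique molecular identifiers (UMIs), short random tags that let each captured RNA molecule be counted once. Library totals ran from 1902752 to 2439334 UMIs, and 15292 to 16321 genes had at least 1 UMI. Levels are given as CPM, which is counts scaled to a common library size, after TMM scaling, and 10682 genes had enough counts to be tested. A gene was called where its Benjamini-Hochberg adjusted p was under 0.1 and its log2 fold change was beyond 2 in either direction, which is more than 4-fold. By this rule 218 genes (2.04%) were higher at 2 days and 201 genes (1.88%) were lower. At any fold size, 509 genes (4.77%) were higher and 601 genes (5.63%) lower at an adjusted p under 0.1. The median log2 fold change of all genes tested was 0.01.

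The hepatocyte label was checked first. All 10 hepatocyte markers were present in every library, with a summed level of 10809, 13354 and 12263 CPM at 1 day and 9263, 8029 and 9515 CPM at 2 days. Some of these messages, such as Alb and Ttr, were limited by the number of possible tags, described below. The sum may therefore understate both their level and their fall. Markers of other cells differed in how they moved. The 12 Kupffer cell markers summed to 155, 116 and 7.08 CPM at 1 day and to 156, 61.0 and 4.05 CPM at 2 days. The 12 sinusoidal endothelial markers summed to 238, 145 and 48.0 CPM and then to 194, 167 and 35.0 CPM, and the 12 stellate cell and fibroblast markers to between 4.55 and 36.5 CPM in all 6 libraries. Replicate 3 was the lowest in each of these sums on both days, and 7 of 8 leukocyte markers had no count. No tested member of the Kupffer, endothelial and stellate lists was called, against 2.04% of all genes tested called higher and 1.88% lower. The 6 cholangiocyte markers summed to 366, 417 and 474 CPM at 1 day and to 346, 191 and 298 CPM at 2 days, and the 5 erythroid markers to 51.1, 87.3 and 56.6 CPM and then to 9.62, 4.28 and 5.58 CPM, so both sums were lower in each 2-day library. Of the cholangiocyte markers, Cftr had no count and Krt19 had 0 UMIs at 1 day and 5 at 2 days. Most of the cholangiocyte sum was Sox9, described below, and the markers did not fall as one. Of the 6, 3 had a higher mean at 2 days and 2 a lower one. Krt7 was called higher, and the median log2 fold change of the 3 tested markers was 1.39. The part of these cells in the results below was not tested. In bulk RNA, fewer cells of a type and less RNA per cell cannot be told apart.

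Genes on 8 cell cycle lists made up 106 of the 218 genes called higher, and none of the 195 tested genes of these lists was called lower. Among these lists, G1 control had 8 of 27 tested genes called higher, the 4 DNA replication lists 39 of 91 and the 3 mitosis lists 59 of 77, against 2.04% of all genes tested. Of the 109 genes on the DNA replication lists 97 had a higher mean at 2 days, as did 100 of the 103 mitosis genes, the untested ones included. Over all genes, 10504 had a higher mean at 2 days and 9897 a lower one. Many of these genes had few counts at 1 day and entered the test only through their counts at 2 days, so that their calls were partly set by the filter. Where only genes that passed the filter in all 3 libraries of 1 day were counted, 8 of 54 replication genes (14.8%) and 7 of 22 mitosis genes (31.8%) were called higher, against 38 of 9381 genes overall (0.405%). In the 2-day group, replicate 3 was the highest library for 53 of the 59 called mitosis genes and replicate 1 the lowest for 43. The summed level of all mitosis genes was 1217, 1307 and 1307 CPM at 1 day and 2840, 3678 and 6184 CPM at 2 days, so the 2-day cultures differed among themselves although none overlapped with 1 day. The summed level of the replication genes was 2724, 3366 and 3144 CPM, then 4662, 5547 and 6762 CPM.

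Among regulators of G1, cyclin D1 and E2F1 rose. Ccnd1, which encodes the growth factor-responsive cyclin D1, was at 16.2, 13.2 and 6.06 CPM at 1 day and at 108, 194 and 201 CPM at 2 days (log2 fold change 3.81 ± 0.41 SE, adjusted p = 0.000204). Its relative Ccnd2 moved from 7.43, 7.61 and 1.01 CPM to 44.8, 51.7 and 26.9 CPM (2.92 ± 0.52, adjusted p = 0.00337). In neither gene did the days overlap. E2f1, an activating E2F factor, was at 20.1, 18.8 and 18.2 CPM and then at 103, 167 and 127 CPM (2.80 ± 0.30, adjusted p = 0.000204). The 1-day libraries were close together here and the lowest 2-day library stood far above them. Foxm1, a factor that drives mitotic genes, had 1 UMI over the 3 libraries of 1 day and 24, 74 and 50 UMIs at 2 days, a ratio of 133 with a 95% counting interval of 23.5 to 5294 (adjusted p = 0.000372). Cyclin E2 (Ccne2), a partner of CDK2 at the start of S phase, had 1 UMI in each 1-day library and 16, 29 and 23 at 2 days, a ratio of 20.4 (interval 6.69 to 101, adjusted p = 0.00101). These intervals cover counting error only. Cyclin E1 (Ccne1) was already present and moved less, from 18.3, 30.9 and 25.8 CPM to 68.2, 52.9 and 83.6 CPM (1.45 ± 0.31, adjusted p = 0.0115), which was below the fold threshold.

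Inhibitors of cyclin-dependent kinases did not move as one. Cdkn2c, an inhibitor of the cyclin D kinases, was called higher, from 4.81, 4.57 and 4.04 CPM to 28.9, 20.99 and 47.6 CPM (2.84 ± 0.42, adjusted p = 0.00114). Cdkn1a, which encodes p21, was at 695, 1081 and 743 CPM at 1 day and at 759, 515 and 519 CPM at 2 days, with overlapping groups (−0.49 ± 0.24, adjusted p = 0.294). Cdkn1b, which encodes p27, was at 37.6, 39.1 and 57.6 CPM and then at 66.5, 61.8 and 130 CPM (0.94 ± 0.35, adjusted p = 0.144). For Myc, a growth-promoting factor, the 3 libraries of 1 day lay between 7.10 and 9.60 CPM and those of 2 days between 3.11 and 16.2 CPM, which enclosed them (0.08 ± 0.54, adjusted p = 0.962).

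**Figure D1:**
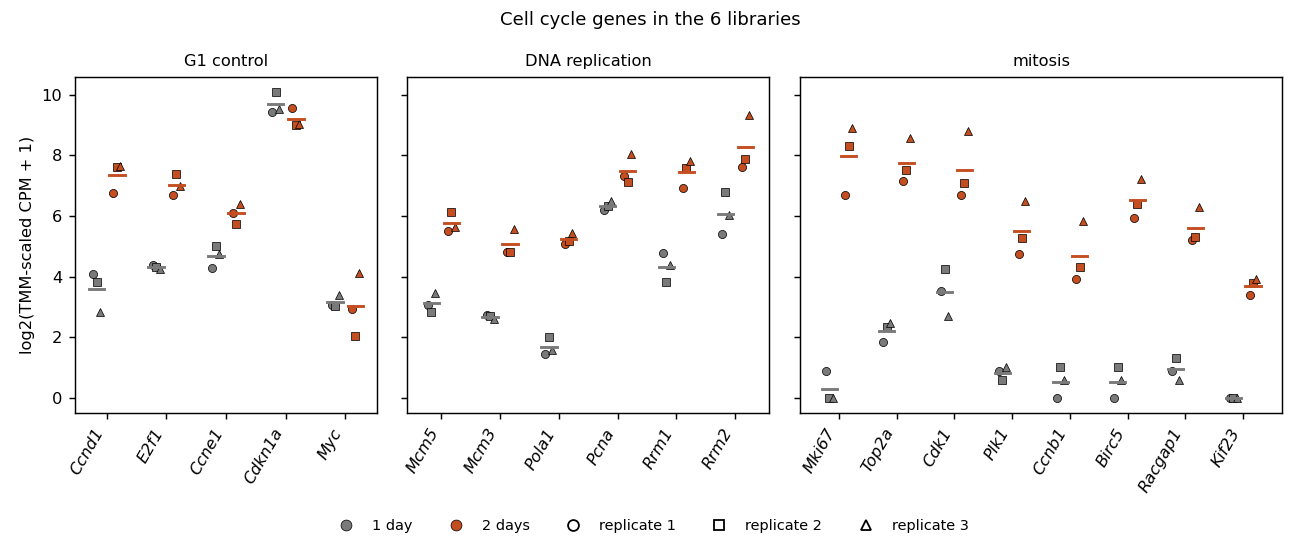
Level of 19 cell cycle genes in each library, as log2 of TMM-scaled CPM plus 1, with grey for 1 day and orange for 2 days, a marker shape for each replicate and a bar for the mean of 3. Each mitosis gene on the right, all of them called higher, is lower in every 1-day library than in any 2-day library, as were 1234 of the 10682 genes tested. At 2 days these genes lie between 9.62 CPM (Kif23, lowest library) and 477 CPM (Mki67, highest library). Cdkn1a and Myc, in contrast, overlap between days.

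DNA replication begins when origins are licensed by the MCM helicase. Of the 27 tested genes of origin licensing and firing, 13 were called higher, against 2.04% of all genes tested. Of the 17 that passed the filter in the libraries of 1 day, 5 were called. Orc5 was the only gene of the list lower at an adjusted p under 0.1. Mcm5, a helicase subunit, moved from 7.43, 6.09 and 10.1 CPM to 44.8, 69.6 and 49.2 CPM (2.79 ± 0.34, adjusted p = 0.0004). Mcm3 moved from 5.68, 5.58 and 5.05 CPM to 27.2, 27.2 and 46.6 CPM (2.61 ± 0.38, adjusted p = 0.00102). The subunit gene Mcm6 was at 15.3, 30.9 and 22.2 CPM and then at 64.0, 134 and 118 CPM (2.21 ± 0.37, adjusted p = 0.00239). Its log2 fold change was just under 2 without 1-day replicate 1 (1.98) or without 2-day replicate 2 (1.99). Mcm2 and Mcm7 were higher at an adjusted p under 0.1 but below the fold threshold, at 1.92 ± 0.35 and 1.41 ± 0.34. Orc5, a subunit of the complex that marks origins, moved the other way, from 31.0, 47.7 and 38.4 CPM to 13.8, 15.6 and 21.3 CPM (−1.21 ± 0.32, adjusted p = 0.0358). Clspn, which encodes the fork checkpoint mediator claspin, had 2 UMIs at 1 day in all and 60, 118 and 60 at 2 days, a ratio of 107 (interval 29.3 to 889, adjusted p = 0.000116).

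Enzymes that copy DNA and chromatin followed, with 11 of 28 tested genes called higher, against 2.04% of all genes tested, and none lower. Of the 16 that passed the filter in the libraries of 1 day, 1 was called. Pola1, the catalytic subunit of the polymerase that primes synthesis, was at 1.75, 3.04 and 2.02 CPM and then at 32.6, 35.0 and 42.6 CPM (3.99 ± 0.40, adjusted p = 0.000158), with little spread on either day. Lig1, the ligase that joins Okazaki fragments, moved from 17.9, 20.3 and 25.8 CPM to 84.9, 128 and 96.3 CPM (2.27 ± 0.30, adjusted p = 0.000598). Asf1b, a histone chaperone of replicating cells, moved from 4.37, 6.09 and 3.54 CPM to 35.1, 49.4 and 75.0 CPM (3.49 ± 0.40, adjusted p = 0.000264). Uhrf1, which carries DNA methylation through replication, had 2 UMIs at 1 day and 69, 117 and 77 at 2 days, a ratio of 118 (interval 32.4 to 982). The sliding clamp Pcna, in contrast, was plain at 1 day already, at 72.1, 79.6 and 88.9 CPM, and reached 159, 139 and 266 CPM (1.23 ± 0.30, adjusted p = 0.0262), below the fold threshold.

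Of the 20 genes of deoxynucleotide supply, 4 were called higher, against 2.04% of all genes tested. Of the 18 that passed the filter in the libraries of 1 day, 2 were called. Both subunits of ribonucleotide reductase, the enzyme that makes deoxynucleotides, were among the called genes. Rrm1 moved from 26.6, 13.2 and 19.7 CPM to 121, 189 and 227 CPM (3.16 ± 0.36, adjusted p = 0.000264). Rrm2 moved from 41.1, 111 and 65.2 CPM to 197, 235 and 651 CPM (2.32 ± 0.48, adjusted p = 0.00841), and without 2-day replicate 3 its log2 fold change was 1.57, under the threshold. Thymidine kinase 1 (Tk1) had 3 UMIs at 1 day and 15, 24 and 35 at 2 days, a ratio of 22.2 (interval 7.30 to 110, adjusted p = 0.00268).

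Of 16 tested genes of DNA repair in S phase, 11 were called higher, including the helicase gene Hells and the recombination gene Brca2, against 2.04% of all genes tested. Only 3 of the 16 passed the filter in the libraries of 1 day and none of these 3 was called, so all 11 calls were of genes that entered through their counts at 2 days. Hells moved from 3.06, 3.55 and 1.52 CPM to 25.9, 23.3 and 28.9 CPM (3.23 ± 0.42, adjusted p = 0.000552), and Brca2 from 3.93, 2.54 and 7.08 CPM to 24.3, 30.3 and 21.8 CPM (2.49 ± 0.42, adjusted p = 0.00272).

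The 3 mitosis lists had the highest medians of the 8 cell cycle lists, at 2.75, 3.48 and 4.77. These medians cover tested genes only, and just 22 of the 77 passed the filter in the libraries of 1 day. The medians thus depended in part on the filter, and with no low-count filter they were 3.35, 3.54 and 4.23. Mki67, the gene of the proliferation antigen Ki67, had 2, 0 and 0 UMIs at 1 day and 248, 811 and 941 at 2 days, a ratio of 899.7 (interval 249 to 7434, adjusted p = 8.77e-05). Replicate 1 held the fewest Mki67 molecules at 2 days and replicate 3 the most. Top2a, the topoisomerase that untangles chromosomes, moved from 2.62, 4.06 and 4.55 CPM to 142, 182 and 382 CPM (5.96 ± 0.49, adjusted p = 6.24e-05). Cdk1, the kinase that drives entry into mitosis, was measurable at 1 day at 10.5, 18.3 and 5.56 CPM and reached 104, 135 and 446 CPM (4.31 ± 0.60, adjusted p = 0.000837). Without 2-day replicate 3 its log2 fold change was 3.38. Its cyclin partners had few counts at 1 day. Ccnb1 (cyclin B1) had 3 UMIs at 1 day and 34, 49 and 110 at 2 days, a ratio of 57.9 (interval 19.5 to 283, adjusted p = 0.000832). Ccna2 (cyclin A2) had 11, 0 and 1 UMIs and then 119, 156 and 247 (5.34 ± 0.71, adjusted p = 0.000598). The 11 UMIs of 1-day replicate 1 set this value, since the fitted log2 fold change without that library was 7.97. Plk1, a kinase of the spindle and of cytokinesis, moved from 0.874, 0.507 and 1.01 CPM to 25.9, 38.1 and 88.7 CPM (5.89 ± 0.63, adjusted p = 0.000204), and its value was 5.22 without 2-day replicate 3. Tpx2, which activates the Aurora A kinase, had 1, 3 and 2 UMIs and then 77, 82 and 126 (5.38 ± 0.53, adjusted p = 0.000158).

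At the kinetochore, where spindle fibres attach, 22 of 31 tested genes were called higher, against 2.04% of all genes tested, and none lower. Only 11 of the 31 passed the filter in the libraries of 1 day. Of these 11, 3 were called higher, against 0.405% of all genes that passed there. Birc5 (survivin) had 3 UMIs at 1 day and 144, 216 and 294 at 2 days, a ratio of 196 (interval 66.8 to 954, adjusted p = 7.59e-05). The kinetochore motor gene Cenpe had 3 UMIs and then 41, 77 and 96, a ratio of 64.2 (interval 21.7 to 314). Sgo2a, a protector of cohesion, moved from 1.75, 2.54 and 1.52 CPM to 18.0, 37.7 and 35.5 CPM (3.94 ± 0.47, adjusted p = 0.000325). Incenp, the scaffold of the chromosomal passenger complex, was present at 1 day at 7.43, 11.7 and 9.10 CPM and reached 32.6, 83.6 and 69.4 CPM (2.72 ± 0.40, adjusted p = 0.00112). Cenpa, the centromeric histone, rose by 2.08 ± 0.52 (adjusted p = 0.0273), but its log2 fold change was 1.11 without 2-day replicate 3 and 1.84 without 1-day replicate 3. The outer kinetochore gene Spc25 was at 62.0, 79.1 and 59.6 CPM at 1 day and at 112, 200.2 and 280 CPM at 2 days (1.56 ± 0.34, adjusted p = 0.0128), below the fold threshold.

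Of the 25 tested genes of mitotic motors, condensins and cytokinesis, 21 were called higher, against 2.04% of all genes tested. Only 4 of the 25 passed the filter in the libraries of 1 day, and 2 of these 4 were called. The others entered through their counts at 2 days. Racgap1, a subunit of the centralspindlin complex that places the cleavage furrow, had 2, 3 and 1 UMIs at 1 day and 86, 100 and 154 at 2 days (5.64 ± 0.53, adjusted p = 0.000116). Its partner motor Kif23 had none at 1 day and 23, 33 and 28 at 2 days, at least 25.2-fold higher against a floor of 3 UMIs over the group. Anln (anillin), a scaffold of the contractile ring, also had none and then 11, 23 and 54, at least 26.4-fold higher. Ncapg, a condensin subunit, had none and then 70, 54 and 61, at least 55.5-fold higher. The motor gene Kif11 had 2 UMIs and then 24, 20 and 39, a ratio of 37.3 (interval 10.0 to 313). Smc2, the core condensin subunit, was at 14.4, 33.0 and 13.6 CPM at 1 day and reached 78.7, 87.1 and 133 CPM (2.29 ± 0.39, adjusted p = 0.00262). Spag5, a spindle protein gene, moved from 6.99, 4.06 and 4.04 CPM to 52.3, 89.4 and 151 CPM (4.24 ± 0.46, adjusted p = 0.000204). The 26 mitosis genes with too few counts to be tested had 61 UMIs at 1 day and 945 at 2 days in all, among them Aurkb (0 and 38) and Bub1 (0 and 19).

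Promoter sequences are shown for 8 of these genes because the replication and mitosis groups, called together, carried different short elements. The 8 were chosen as examples after the matches were seen. RefSeq stretches of 300 bases (250 before and 50 after the start, mouse build GRCm38.p6) were found by gene symbol for 77 of the 91 tested replication genes, 66 of the 77 mitosis genes and 7638 of all 10682 genes tested. The letters searched on both strands were TTTCGCGC, TTTGGCGC, TTTCCCGC and TTTGCCGC for E2F, TTTGAA and TTCGAA for CHR, and CCAAT for the CCAAT box. Matches may overlap one another. In the stretches below, written 5′ to 3′ on the strand of the gene, capitals mark all such matches on either strand. Positions are counted from the RefSeq start, with no position 0. For Mcm5 the stretch covers chr8:75109339-75109418 on the plus strand (−170 to −91), for Mcm6 chr1:128359736-128359825 on the minus strand (−120 to −31) and for Mcm3 chr1:20820263-20820342 on the minus strand (−30 to 50). For Cdk1 it covers chr10:69352903-69353052 on the minus strand (−140 to 10). The other 4 stretches run from −30 to 50: Plk1 at chr7:122159405-122159484 on the plus strand, Kif23 at chr9:61946750-61946829 and Racgap1 at chr15:99651607-99651686 on the minus strand, and Spag5 at chr11:78301561-78301640 on the plus strand.
Mcm5: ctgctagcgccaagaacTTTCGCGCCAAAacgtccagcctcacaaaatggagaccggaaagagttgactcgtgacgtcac
Mcm6: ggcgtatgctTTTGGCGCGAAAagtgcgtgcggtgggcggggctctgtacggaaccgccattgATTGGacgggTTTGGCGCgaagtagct
Mcm3: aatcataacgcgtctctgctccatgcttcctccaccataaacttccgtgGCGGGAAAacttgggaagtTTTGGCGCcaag
Cdk1: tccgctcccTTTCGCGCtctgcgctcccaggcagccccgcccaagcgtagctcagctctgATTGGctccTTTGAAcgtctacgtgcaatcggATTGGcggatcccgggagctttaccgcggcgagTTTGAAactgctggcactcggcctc
Plk1: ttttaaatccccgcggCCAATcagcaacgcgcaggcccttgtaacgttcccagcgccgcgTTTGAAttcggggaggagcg
Kif23: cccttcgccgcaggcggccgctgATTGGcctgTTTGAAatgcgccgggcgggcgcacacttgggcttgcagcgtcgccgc
Racgap1: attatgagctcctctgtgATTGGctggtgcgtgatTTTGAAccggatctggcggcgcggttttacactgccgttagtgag
Spag5: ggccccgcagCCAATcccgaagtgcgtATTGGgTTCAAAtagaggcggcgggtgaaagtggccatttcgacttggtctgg

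In Mcm5 and Mcm6, 2 E2F matches on opposite strands overlapped and formed a single element, and Mcm6 held a further match at −47. Cdk1 held an E2F match at −131 and CHR matches at −71 and −15, with CCAAT boxes in reverse orientation between them and upstream. In Plk1, Kif23, Racgap1 and Spag5 a CCAAT box stood before a CHR, whose leading base lay between positions 3 and 31. An E2F match was found in 31.2% of the replication promoters (24 of 77) and 7.58% of the mitosis promoters (5 of 66), against 5% of all tested genes with a promoter and 2.6% of all 27025 genes of the promoter table. A CHR was found in 71.2% of the mitosis promoters (47 of 66) and 19.5% of the replication promoters, against 16.1% of the tested genes and 21.7% of the table. Both a CHR and a CCAAT box stood in 60.6% of the mitosis promoters, 11.7% of the replication promoters and 7.76% of tested genes. A match to these letters is a description of the sequence and was not read as a bound site.

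**Figure D2:**
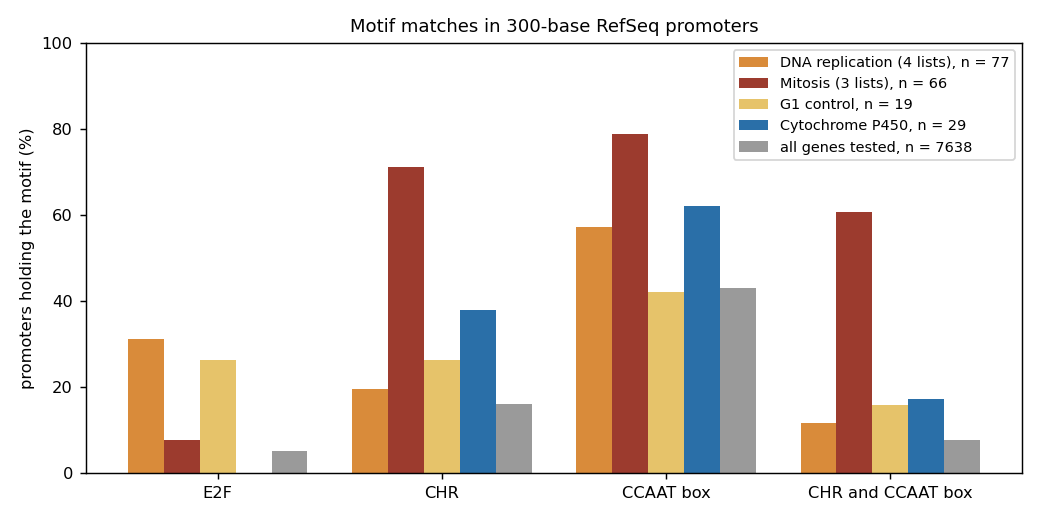
Share of 300-base RefSeq promoters that hold at least 1 match to each element on either strand, by gene group, with n the number of genes that had a promoter. E2F matches are most frequent among the replication genes (31.2%) and CHR matches among the mitosis genes (71.2%), while the cytochrome P450 genes hold no E2F match and 37.9% hold a CHR.

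Outside the cell cycle lists, 112 genes were called higher. The lists were not exhaustive, and these 112 included partners of cell cycle proteins, such as Pclaf and Aunip below. Fbln2, which encodes the matrix glycoprotein fibulin-2, had the smallest p of all genes, at 1.75, 1.01 and 2.02 CPM at 1 day and 108, 97.6 and 82.1 CPM at 2 days (5.86 ± 0.39, adjusted p = 2.80e-05). Pclaf, a PCNA-binding factor that no list held, had 2 UMIs and then 110, 158 and 146, a ratio of 186 (interval 51.2 to 1543, adjusted p = 4.81e-05). Aunip, an Aurora A partner, had 1, 0 and 4 UMIs and then 114, 178 and 94 (6.00 ± 0.58, adjusted p = 0.000139), with a fitted log2 fold change of 7.57 without 1-day replicate 3.

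Among 41 tested genes of the cytoskeleton, 3 were called higher, against 2.04% of all genes tested. Vim, the mesenchymal intermediate filament vimentin, was at 8.74, 6.59 and 6.06 CPM and then at 54.8, 39.3 and 69.9 CPM (2.92 ± 0.35, adjusted p = 0.000327). The actin-binding genes Cnn2 and Tmsb10 rose by 3.08 ± 0.44 and 3.21 ± 0.52 on the log2 scale (adjusted p = 0.00102 and 0.00184). Lgals1 (galectin-1) moved from 11.4, 8.12 and 14.7 CPM to 82.0, 106 and 129 CPM (3.21 ± 0.33, adjusted p = 0.000187), and its day groups did not overlap. S100a6, a calcium-binding protein gene, was at 739, 713 and 941 CPM and then at 1496, 1297 and 1529 CPM (0.85 ± 0.19, adjusted p = 0.0146), while S100a16 fell by 1.16 on the log2 scale (adjusted p = 0.0251). Of 17 matrix, integrin and protease genes none was called, against 2.04% of all genes tested called higher. At an adjusted p under 0.1, 3 of the 17 were higher, against 4.77% of all genes tested. These were Fn1 (fibronectin), Thbs1 and Cd44, at 1.26 ± 0.23, 1.83 ± 0.43 and 1.16 ± 0.30 (adjusted p = 0.00479, 0.021 and 0.0323). For Fn1 the libraries stood at 222, 286 and 272 CPM and then at 634, 490 and 746 CPM.

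Of 8 tested biliary and progenitor markers, 3 were called higher, against 2.04% of all genes tested, and 1 of the 6 that passed the filter in the libraries of 1 day. Sox4, a factor of progenitor and biliary cells, was at 26.2, 19.3 and 24.3 CPM and then at 202, 170 and 109 CPM (2.78 ± 0.32, adjusted p = 0.000274). Krt7, a cholangiocyte keratin, moved from 1.31, 2.54 and 2.02 CPM to 5.86, 10.5 and 9.12 CPM (2.10 ± 0.50, adjusted p = 0.022), a call that was lost without 1-day replicate 1 (1.87) or 2-day replicate 2 (1.91). Cd24a, a surface protein of progenitor cells, moved from 1.31, 2.03 and 0.505 CPM to 7.95, 15.9 and 34.0 CPM (3.84 ± 0.66, adjusted p = 0.00304), with a log2 fold change of 3.16 without 2-day replicate 3. Spp1 (osteopontin) was higher by 1.39 ± 0.28 (adjusted p = 0.00708). Sox9, the biliary factor most often used as a marker, was at 341, 388 and 448 CPM and then at 288, 113 and 231 CPM (−0.90 ± 0.32, adjusted p = 0.126). Krt19 and Prom1 had 5 or fewer UMIs in all on either day, too few to test. Of 19 tested targets of the Yap coactivator, 3 were called higher: Igfbp3, Ankrd1 and Fjx1. The share of all genes was 2.04%, and 1 of the 15 targets that passed the filter in the libraries of 1 day was called. Igfbp3, an IGF-binding protein, moved from 2.62, 4.06 and 2.53 CPM to 38.1, 28.4 and 29.9 CPM (3.37 ± 0.39, adjusted p = 0.000274). Ankrd1 moved from 12.7, 20.3 and 26.8 CPM to 79.9, 78.5 and 254 CPM (2.79 ± 0.49, adjusted p = 0.00327), but its log2 fold change was 1.99 without 2-day replicate 3. The best-known targets Ccn1 and Ccn2 were at 0.07 ± 0.37 and 0.23 ± 0.26 (adjusted p = 0.948 and 0.694), and the list had a median of 0.23.

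Of 296 tested genes on 10 lists of liver function, 88 were called lower and 1 higher, and these 88 were part of the 201 genes called lower (1.88% of all genes tested). The gene called higher was Abcc4, an export pump for bile acids and nucleotides, at 3.49, 1.52 and 0.505 CPM and then at 7.95, 8.16 and 8.11 CPM (2.06 ± 0.57, adjusted p = 0.0456). That call was lost without 1-day replicate 2 (1.93), 1-day replicate 3 (1.64) or 2-day replicate 2 (2.05, adjusted p = 0.175), and the value was 2.92 without 1-day replicate 1. Since a gene that falls to few counts passes the filter through 1 day alone, the share was also taken over genes that passed in all 3 libraries of 2 days. Of these, 17 of 26 cytochrome P450 genes (65.4%) were called lower, against 105 of 9753 genes overall (1.08%). The same count was 3 of 10 for gluconeogenesis, 3 of 12 for bile acids, 9 of 36 for complement and coagulation, 6 of 34 for the urea cycle and amino acids and 4 of 24 for conjugating enzymes. It was 2 of 19 for acute-phase proteins, 3 of 32 for plasma proteins, 2 of 26 for fatty acid oxidation and 2 of 35 for cholesterol and fatty acid synthesis.

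Cytochrome P450 enzymes, which oxidise drugs, steroids and fatty acids, had the lowest median of the pathway lists, at −3.19, with 27 of 37 tested genes called lower (1.88% of all genes tested were). Cyp2c40 was at 214, 204 and 152 CPM at 1 day and at 13.8, 15.2 and 13.7 CPM at 2 days (−3.73 ± 0.30, adjusted p = 6.24e-05), with hardly any spread at 2 days. Cyp2f2, an enzyme of the periportal zone, moved from 707, 908 and 1058 CPM to 118, 69.2 and 59.8 CPM (−3.44 ± 0.30, adjusted p = 9.26e-05). Cyp2c68 and Cyp2c67 were lower by similar amounts, at −3.14 ± 0.29 and −3.72 ± 0.34 (adjusted p = 9.82e-05 for both). The genes of the Cyp2c cluster are close copies, so reads may be split among them and the values of single copies are uncertain. The pericentral enzymes followed. Cyp1a2 was at 323, 485 and 298 CPM and then at 49.0, 28.8 and 18.2 CPM (−3.52 ± 0.38, adjusted p = 0.000204). Cyp2e1 moved from 477, 550 and 243 CPM to 52.3, 19.8 and 14.2 CPM (−3.87 ± 0.48, adjusted p = 0.000448). Cyp3a11, the main steroid-inducible enzyme, moved from 346, 235 and 148 CPM to 38.1, 10.9 and 7.60 CPM (−3.67 ± 0.55, adjusted p = 0.00121). In Cyp1a2, Cyp2e1 and Cyp3a11 replicate 1 kept the highest level at 2 days, and without it the log2 fold changes of Cyp2e1 and Cyp3a11 were −4.64 and −4.71. Cyp2u1, an enzyme outside drug metabolism, went the other way without passing the test, from 39.8, 38.0 and 26.8 CPM to 69.9, 72.7 and 43.6 CPM (0.83 ± 0.31, adjusted p = 0.144).

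**Figure D3:**
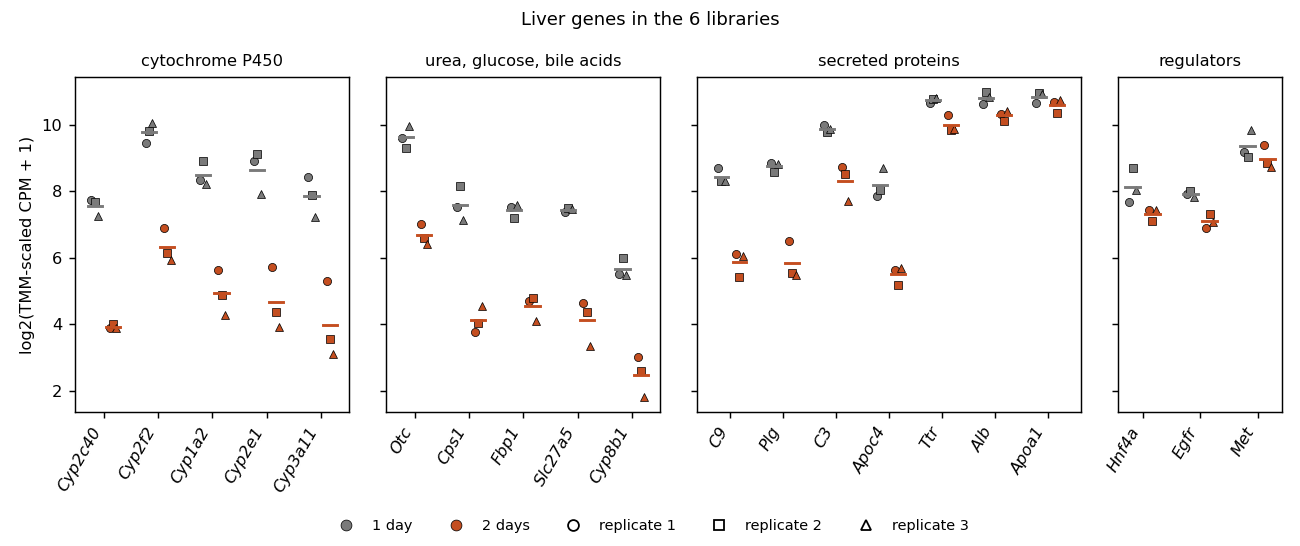
Level of 20 liver genes and regulators in each library, as log2 of TMM-scaled CPM plus 1, with grey for 1 day, orange for 2 days, a marker shape for each replicate and a bar for the mean of 3. The metabolic genes on the left were all called lower, so their complete separation between days is in part set by that choice. Of all genes tested, 12.6% lay wholly below their 1-day libraries. Cyp2c40 is between 152 and 214 CPM at 1 day and between 13.7 and 15.2 CPM at 2 days, whereas Apoa1 and Met overlap.

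In the urea cycle and amino acid breakdown 11 of 40 genes were called lower, against 1.88% of all genes tested, and none higher. Otc, which makes citrulline, was at 783, 626 and 999 CPM and then at 128, 95.3 and 85.2 CPM (−2.96 ± 0.27, adjusted p = 9.82e-05). Cps1, which feeds ammonia into the cycle, moved from 183, 282 and 138 CPM to 12.6, 15.6 and 22.3 CPM (−3.58 ± 0.37, adjusted p = 0.00017). The next enzyme, Ass1, was lower by less, from 84.7, 85.2 and 92.5 CPM to 30.1, 30.3 and 14.7 CPM (−1.79 ± 0.32, adjusted p = 0.0035). Prodh2, of hydroxyproline breakdown, was lower by more than that (−3.8997 ± 0.43, adjusted p = 0.000238). All 13 tested genes of gluconeogenesis and glucose handling lay below their 1-day libraries without overlap, as did 12.6% of all genes tested, and 5 were called lower, against 1.88%. Fbp1, an enzyme of gluconeogenesis, moved from 183, 147 and 190.0 CPM to 25.1, 26.8 and 16.2 CPM (−2.92 ± 0.31, adjusted p = 0.000187). Khk, which takes up fructose metabolism, and Slc37a4, the glucose 6-phosphate carrier, were lower by 2.43 ± 0.33 and 2.34 ± 0.34 (adjusted p = 0.000656 and 0.00102).

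Of 18 tested genes of bile acid synthesis and transport, 8 were called lower. The share of all genes tested was 1.88%, which also applies to the other lists of this paragraph. Cyp8b1, which sets the share of cholic acid, was at 45.0, 62.4 and 44.0 CPM and then at 7.11, 5.05 and 2.53 CPM (−3.33 ± 0.39, adjusted p = 0.000284). Slc27a5, which activates bile acids for conjugation, moved from 165, 179 and 177 CPM to 23.9, 19.8 and 9.12 CPM (−3.29 ± 0.36, adjusted p = 0.000204). Cyp7a1, the rate-limiting enzyme of the pathway, had 2, 0 and 1 UMIs at 1 day and none at 2 days, too few to test. Among 30 conjugating enzymes 10 were called lower, led by Nat8f1 (−3.11 ± 0.41) and the glucuronosyltransferase Ugt2b1 (−3.21 ± 0.45), with adjusted p of 0.000598 and 0.000819. Gstm1, a glutathione transferase with close copies, moved from 1075, 1486 and 1202 CPM to 581, 389 and 334 CPM (−1.53 ± 0.24, adjusted p = 0.00174). Of 26 genes of fatty acid oxidation 2 were called lower, including the peroxisomal thiolase Acaa1b (−3.09 ± 0.47, adjusted p = 0.00134), and the median was −0.18. Cholesterol and fatty acid synthesis had 2 of 35 genes called lower and a median of −0.16. The 2 were Tm7sf2, a sterol reductase (−2.10 ± 0.35, adjusted p = 0.00232), and Thrsp, a regulator of lipogenesis (−2.04 ± 0.32, adjusted p = 0.00166). Both calls were near the fold threshold: the Tm7sf2 log2 fold change was −1.66 without 1-day replicate 2, and the Thrsp log2 fold change was −1.91 without 1-day replicate 1 and −1.84 without 2-day replicate 3. Scd1, the fatty acid desaturase, was lower by less (−1.40 ± 0.25, adjusted p = 0.00355).

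Secreted proteins fell to unequal extents. Of 40 complement and coagulation genes, 12 were called lower and 30 were lower at an adjusted p under 0.1. The shares of all genes tested were 1.88% and 5.63%. C9, the pore-forming component, moved from 418, 319 and 314 CPM to 68.2, 42.0 and 64.9 CPM (−2.59 ± 0.29, adjusted p = 0.000238), and its partner C8a from 497, 331 and 392 CPM to 77.0, 77.0 and 47.1 CPM (−2.60 ± 0.29, adjusted p = 0.00024). Plg (plasminogen) moved from 456, 384 and 454 CPM to 90.4, 45.9 and 44.1 CPM (−2.84 ± 0.32, adjusted p = 0.00024). The central component C3 was lower (−1.498 ± 0.26), as was prothrombin (F2, −0.89 ± 0.24) (adjusted p = 0.00326 and 0.0418). Heparin cofactor II (Serpind1) was higher, from 56.8, 65.4 and 83.9 CPM to 109, 110.0 and 160 CPM (0.88 ± 0.29, adjusted p = 0.0979). Of 21 acute-phase genes 4 were called lower, among them Serpina3n (−2.32 ± 0.31, adjusted p = 0.000598).

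Of 36 plasma protein and apolipoprotein genes 7 were called lower, against 1.88% of all genes tested. Apoc4 led them, from 230, 263 and 413 CPM to 48.5, 35.4 and 51.2 CPM (−2.75 ± 0.31, adjusted p = 0.00026). Pon1, an esterase carried on HDL, was also lower (−2.198 ± 0.32, adjusted p = 0.00102). Apoc2 was the only one of the 36 that was higher at an adjusted p under 0.1 (0.91 ± 0.30, adjusted p = 0.097). The most abundant messages sat close to the ceiling of the tags, since tags of 6 random bases are limited in number and 77 to 130 genes per library had over 2048 UMIs. Alb (albumin) had 3602, 3967 and 3610 UMIs at 1 day and 3042, 2858 and 2677 at 2 days (−0.53 ± 0.18, adjusted p = 0.106). After correction of the counts for molecules that share a tag, the Alb log2 fold change was −1.26 (adjusted p = 0.0179), that of Ttr (transthyretin) −1.34 in place of −0.73, and that of Apoa1 −0.49 in place of −0.24. The median of the plasma protein list moved from −0.77 to −1.33 with the correction, and those of the P450, replication and mitosis lists by less than 0.1. Other lists moved as well. The median went from −1.11 to −1.40 for acute-phase proteins and from −0.23 to −0.53 for messages of the mitochondrial genome. For metallothioneins and NRF2 targets it went from −0.35 to −0.59.

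**Figure D4:**
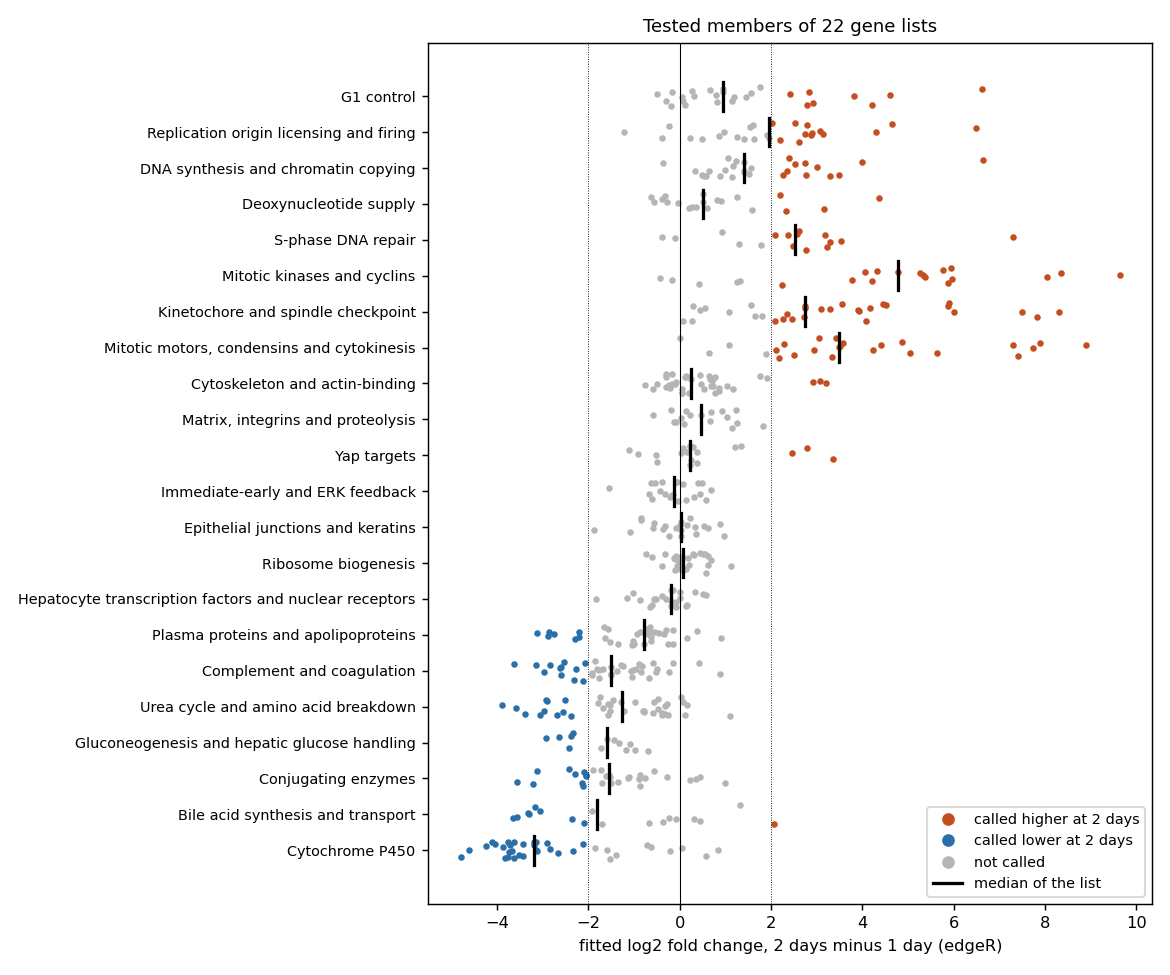
Fitted log2 fold change (2 days minus 1 day) of each tested member of 22 gene lists, with orange for genes called higher, blue for genes called lower, grey for the rest, a black bar for the list's median and dotted lines at the fold threshold. Members with no count at 1 day lie far to the right and their fitted values are no bound. Medians run from −3.19 for the cytochrome P450 genes to 4.77 for mitotic kinases and cyclins, with those of ribosome biogenesis, junctions and immediate-early genes near 0.

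Of 23 tested hepatocyte transcription factors and nuclear receptors, none was called, and 2 were lower at an adjusted p under 0.1: Creb3l3 (−1.84 ± 0.44, adjusted p = 0.022) and Ppara (−1.16 ± 0.32, adjusted p = 0.0463), both factors of fat metabolism. The Creb3l3 log2 fold change passed the fold threshold without 1-day replicate 3 (−2.02) or 2-day replicate 1 (−2.44). Hnf4a, a master regulator of hepatocytes, was at 204, 413 and 262 CPM and then at 172, 137 and 171 CPM (−0.87 ± 0.29, adjusted p = 0.103). All 2-day libraries of Hnf4a lay below those of 1 day. The list's median was −0.19. Of all genes tested, 2.04% were called higher, 1.88% were called lower and 5.63% were lower at an adjusted p under 0.1. In a list this short, the counts above are close to those shares.

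Of 8 tested genes of the EGF receptor family, its ligands and Met, none was called, and Egfr was lower, from 241, 257 and 224 CPM to 118, 159 and 134 CPM (−0.81 ± 0.24, adjusted p = 0.0703). For each list of this paragraph, the shares of all genes tested were 2.04% called higher and 1.88% called lower. At an adjusted p under 0.1 they were 4.77% higher and 5.63% lower. Met, the receptor of HGF, was at 583, 521 and 918 CPM and then at 669, 462 and 420 CPM (−0.38 ± 0.27, adjusted p = 0.486). Of 22 immediate-early and ERK feedback genes only the stress factor Atf3 passed an adjusted p of 0.1 (−1.54 ± 0.30, adjusted p = 0.00581). Jun and Egr1 were at −0.62 ± 0.29 and −0.43 ± 0.34 (adjusted p = 0.275 and 0.548). Of 22 junction and keratin genes none was called, with E-cadherin (Cdh1) at 519, 660 and 596 CPM and then at 673, 774 and 807 CPM (0.34 ± 0.20, adjusted p = 0.381). Cldn3 and Ocln, both of tight junctions, were at −0.32 ± 0.29 and −0.57 ± 0.27 (adjusted p = 0.608 and 0.273). At an adjusted p under 0.1, 2 claudin genes were higher, Cldn2 (0.98 ± 0.27, adjusted p = 0.0457) and Cldn4 (0.89 ± 0.28, adjusted p = 0.0788). The claudin gene Cldn14 (−1.88 ± 0.42, adjusted p = 0.014) and Gjb1, the main hepatocyte gap junction gene (−1.09 ± 0.34, adjusted p = 0.0792), were lower. The Cldn14 log2 fold change passed the fold threshold without 1-day replicate 3 (−2.14) or 2-day replicate 2 (−2.04).

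Several lists had a single called gene or none. No gene was called among 29 of ribosome biogenesis, 85 cytosolic ribosomal proteins, 13 mitochondrial messages, 76 nuclear subunits of oxidative phosphorylation and 8 interferon-stimulated genes. The shares of all genes tested were 2.04% called higher and 1.88% called lower, which apply to each list of this paragraph. At those shares the shorter lists would hold few called genes or none. The serine synthesis enzyme Phgdh, on the stress response list, was called higher, from 5.24, 5.07 and 14.7 CPM to 23.4, 51.7 and 64.9 CPM (2.49 ± 0.49, adjusted p = 0.00654), with 3.16 without 1-day replicate 3. The glycolytic gene Pfkp rose by 2.05 ± 0.45 (adjusted p = 0.0134), which was below the fold threshold without 1-day replicate 2 (1.81) or 2-day replicate 3 (1.69), while the pyruvate kinase gene Pkm was higher by 1.29 ± 0.28 (adjusted p = 0.0136). Of the NRF2, NF-kB and p53 target lists 1 gene each was called lower, and each call was lost when certain single libraries were left out. Slc7a11, the cystine carrier, had a log2 fold change of −2.06 ± 0.51 (adjusted p = 0.0277), with values of −1.54 without 1-day replicate 1, −1.81 and −1.71 without 2-day replicates 2 and 3, and −2.96 without 2-day replicate 1. The chemokine gene Cxcl2 (−2.15 ± 0.65, adjusted p = 0.0688) lost its call without any library other than 1-day replicate 3, with values from −2.54 to −1.24. Sesn1, of the p53 response (−2.19 ± 0.54, adjusted p = 0.0264), was at −1.71 without 1-day replicate 2, −1.93 without 2-day replicate 3 and −2.81 without 2-day replicate 2. Alas2, the only tested erythroid marker, fell from 47.6, 75.6 and 55.6 CPM to 7.95, 3.50 and 5.58 CPM (−3.38 ± 0.38, adjusted p = 0.000238), and the 4 globin genes, too sparse to test, had lower means at 2 days as well. Hba-a1 had 15 UMIs at 1 day and 2 at 2 days, 8.34-fold lower (interval 1.94 to 75.1), and Hba-a2 had 11 and 1, 12.2-fold lower (interval 1.78 to 526).

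The 6 libraries were also set among the 21 libraries of the whole culture series, from freshly isolated cells to 14 days, with 3 libraries per time and 1 scaling over all. On that scale Mki67 was at 9.37 ± 6.38 CPM (SD, n = 3) in fresh cells, 0.758 ± 0.657 at 3 h, 0.254 ± 0.441 at 1 day, 259 ± 159 at 2 days, 374 ± 46.5 at 4 days and 147 ± 47.0 at 14 days. The 2 days sample was thus the earliest with high Mki67 among those made, and the means of 2 and 4 days differed by less than the SD at 2 days. Ccnd1 was at 46.2 ± 22.1 CPM in fresh cells, 10.4 ± 4.55 at 1 day, 147 ± 44.2 at 2 days and 775 ± 249 at 14 days. Fbln2 was listed at 0 in fresh cells and at 3 h, and went on from 84.2 ± 13.1 at 2 days to 713 ± 170 at 14 days. Fabp1, the liver fatty acid-binding protein, had 1763 ± 103 CPM in fresh cells, 99.3 ± 10.2 at 1 day, 5.97 ± 0.478 at 2 days and no count at 7 and 14 days. The summed replication genes were at 4064 ± 108 CPM in fresh cells and 4245 ± 312 at 3 h, with 2713 ± 312 at 1 day and 4937 ± 824 at 2 days. Within them the genes of deoxynucleotide supply had the largest sum, at 2956 ± 259 in fresh cells and 1580 ± 249.97 at 1 day. At 2 days they were at 2118 ± 332, still below their fresh level. The other replication lists were above their fresh level at 2 days. DNA synthesis and chromatin copying was at 404 ± 24.8 CPM in fresh cells and 1435 ± 256 at 2 days. Origin licensing and firing was at 575 ± 97.96 and then 1054 ± 184, and DNA repair in S phase at 128 ± 42.9 and then 330 ± 67.7. The summed mitosis genes were at 1202 ± 162, 800 ± 16.8, 1125 ± 54.3 and 3684 ± 1431 CPM in fresh cells and at 3 h, 1 day and 2 days. These are levels with no test, since 1 and 2 days are the libraries already compared.

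**Figure D5:**
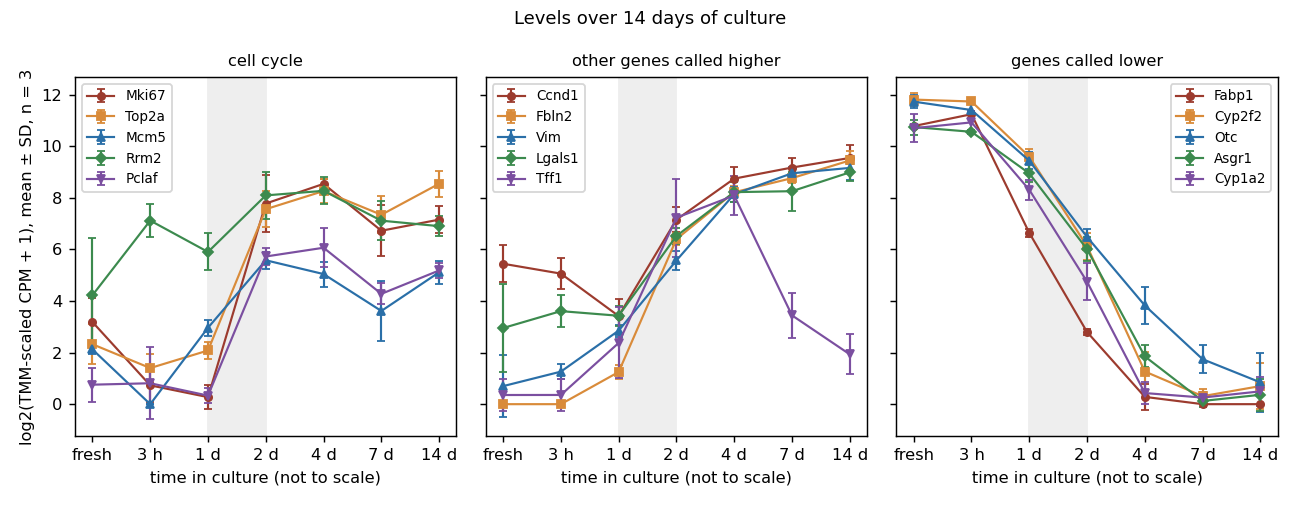
Mean and SD (n = 3) of log2 of TMM-scaled CPM plus 1 at 7 times of culture, with the step from 1 to 2 days shaded and the time axis not to scale. Mki67, Top2a and Pclaf are below 10 CPM on average up to 1 day and above 18 CPM from 2 days on, Fbln2 and Vim go on upward to 14 days, Tff1 is high only at 2 and 4 days, and the genes called lower were already below their fresh level at 1 day.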

How the data were processed

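RNA of cultured hepatocytes was made into CEL-Seq2 libraries, in which the 3′ end of each RNA is tagged with a UMI before amplification. The authors deposited 1 table of whole-number UMI counts per Ensembl gene for all 49 libraries, not normalized. Per the submitters' processing notes, bcl2fastq 2.20, Bowtie2 2.3.1 and HTSeq 0.6.0 were used with build GRCm38. Gene symbols were taken from a table of gene IDs, which named 45143 of 46078 rows.

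The 3 libraries of 1 day and the 3 of 2 days were fitted with edgeR 4.0.16 in R 4.3.3: filterByExpr (minimum count 10, minimum total 15), TMM scaling, and the quasi-likelihood F-test with Benjamini-Hochberg adjustment over all 10682 genes tested. Standard errors are the log2 fold change divided by the square root of F. For genes with 1 to 3 UMIs in a group, the ratio of depth-scaled sums is given with an exact 95% interval. With 0 UMIs, a floor of 3 UMIs over the group gives a bound. Both cover counting error only. Genes were named by rule: the 10 called genes of smallest p in each direction, genes the study names for the time course, anchors and the 3 genes of smallest p of each list, members called against their list, and markers of other cells; not every gene so eligible is described, and Adam12, Apoc2, Asgr1, Ccnd2, Ccne2, Cdkn1b, Cdkn2c, Cyp2u1, Hmga2, Incenp, Kif23, Lig1, Loxl2, Mcm6, Mcm7, Mug1, Orc5, Pgf, Serpind1, Smc2, Spc25, Stmn1, Tff1, Tnnt2, Aurkb, Bub1 and Gjb1 were chosen after their values were seen. Some items are not reported here. Gene lists, members and tests were chosen with earlier results of these data known. No 2 libraries of a group agreed within sampling noise, with chi-square per degree of freedom from 10.1 to 14.2.

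Alternatives were RLE scaling, DESeq2 1.42.0, no low-count filter, a filter of at least 1 CPM in 3 libraries, all 21 time course libraries in 1 fit, a replicate block, correction for UMI collisions, counts thinned to the smallest library, other thresholds, and leaving out each library.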

Additional observations from a re-analysis of the deposited data

How the results depend on the processing

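The 4 counts that answer the comparison were recomputed under each alternative, and most stayed within 1.5 times the main count. The exceptions were 366 genes called higher with no low-count filter, when 20401 genes were tested, and 346 genes higher and 418 lower at an adjusted p under 0.05 with a log2 fold change beyond 1. DESeq2 gave 220 higher and 199 lower, of which 218 and 199 were calls of edgeR too. With each library left out in turn, the range was 212 to 290 genes higher, 197 to 271 lower, 35 to 46 replication genes higher and 55 to 69 mitosis genes higher.

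Whether the replicate numbers pair the samples is undecided. Deviations from the group means of libraries with the same number correlated at 0.188, 0.0105 and 0.0187, so that 1 of 3 pairs passed 0.1, and not every library correlated best with its own number, although replicate 3 had the lowest Kupffer, endothelial and stellate marker sums on both days. A replicate block gave 222 genes higher, 205 lower, 39 replication genes and 57 mitosis genes. Under the block the Cenpa log2 fold change was 1.76 and the Cxcl2 log2 fold change −1.78, both under the fold threshold, and the Creb3l3 log2 fold change passed it at −2.02. The Cxcl2 call was also lost with DESeq2 (adjusted p = 0.151), and those of Cxcl2 and Slc7a11 with all 21 time course libraries in 1 fit. Genes near 0 changed sign in places, and none passed the test there. The Myc log2 fold change was −0.0893 with the block and −0.033 in thinned counts, and, over the fits that leave a library out, lay between −0.72 and 0.49. The Ccn1 log2 fold change was −0.0043 with the block and over those fits lay between −0.45 and 0.28. Few UMIs at 1 day limit the precision of the folds of mitosis genes, and the number of possible tags limits those of the most abundant messages.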

Other observations

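Further genes called higher outside the lists, chosen after their values were seen, included genes of secreted, matrix-related, chromatin and cytoskeletal proteins. Tff1, a trefoil peptide of gastric mucus, was at 0.874, 7.10 and 11.1 CPM at 1 day and at 49.4, 339 and 293 CPM at 2 days (log2 fold change 5.17 ± 0.78, adjusted p = 0.00129), with 5.86 without 1-day replicate 3. Replicate 1 was the lowest on both days. Pgf, a growth factor of the VEGF family, moved from 7.43, 23.3 and 68.2 CPM to 200, 275 and 249 CPM (2.88 ± 0.57, adjusted p = 0.00678), and its value was 3.98 without 1-day replicate 3. The protease gene Adam12 and the collagen cross-linker Loxl2 rose by 2.73 ± 0.34 and 3.76 ± 0.57 (adjusted p = 0.000448 and 0.00132). Hmga2, a chromatin protein of fetal and growing cells, moved from 80.8, 57.8 and 109 CPM to 626, 294 and 413 CPM (2.43 ± 0.34, adjusted p = 0.000815). Tnnt2, a troponin of heart muscle, moved from 7.86, 3.55 and 3.03 CPM to 95.0, 44.7 and 111 CPM (4.07 ± 0.47, adjusted p = 0.000264). Stmn1, which destabilises microtubules, rose by 3.05 ± 0.32 (adjusted p = 0.000187).

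Called genes of smallest p among those lower included genes of lipid, steroid and methyl metabolism that no list held. Fabp1 was at 124, 113 and 101 CPM and then at 6.28, 6.61 and 7.60 CPM (−4.04 ± 0.31, adjusted p = 4.81e-05). Inmt, a methyltransferase, moved from 75.6, 94.4 and 64.2 CPM to 5.02, 4.67 and 2.03 CPM (−4.27 ± 0.38, adjusted p = 9.26e-05). Hsd17b6, a steroid dehydrogenase, was at −3.67 ± 0.36 (adjusted p = 0.000145). Tmem86b, a lysoplasmalogen hydrolase, was at −4.69 ± 0.45 (adjusted p = 0.000125), with −5.33 without 2-day replicate 1. Asgr1, the asialoglycoprotein receptor of hepatocytes, moved from 427, 654 and 628 CPM to 90.4, 82.8 and 50.7 CPM (−2.93 ± 0.30, adjusted p = 0.000158). The protease inhibitor genes Serpina3m and Mug1 were at −2.96 ± 0.30 and −2.77 ± 0.28 (adjusted p = 0.000158 for both), and both have close copies among which reads may be split.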
